A study of Mus musculus with 3 samples.

Results

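Fgf5, Otx2, Pou3f1, Zic2, Sall2, Nes, Cdh2 and Lef1 are 8 genes that mouse pluripotent cells use as they leave the ground state of the embryonic stem cell for the formative and primed epiblast, or that mark the cell types just beyond it. They were looked up by their symbols in the deposited lists of transcript events, in which 7 of the 8 had rows among 25346 genes. The level of a gene was the larger of its summed FPKM over first exons and its summed FPKM over last exons, where FPKM is the number of sequenced fragments corrected for transcript length and for library size. No member shared a row with a neighbouring gene.

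Embryonic stem (ES) cells kept in serum with LIF resemble the epiblast before implantation. When they are released from that state, the naive factors are shut down and Otx2 works with Oct4 at a new set of enhancers, at which Fgf5 and Pou3f1 are among the known targets. FGF signalling through ERK drives this step, and the cells later become responsive to Wnt and Nodal signals that pattern the germ layers. Pcgf1 is the Polycomb ring finger subunit that defines PRC1.1, a complex that places ubiquitin on histone H2A and is brought to CpG islands by Kdm2b.

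RNA was sequenced from 3 samples of C57BL/6 mouse ES cells, 1 for each group. WT cells were unedited, Pcgf1-/- cells carried a Cas9 deletion at exons 2 and 3 of Pcgf1, and Pcgf1-/-+Pcgf1 cells were the knockout line with FLAG-tagged Pcgf1 returned by lentivirus. Both modified lines had passed through puromycin selection, and each was 1 line. The ES cells were maintained on mitomycin-C-treated mouse embryonic fibroblast feeders with serum and LIF.

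There was 1 sample per group, so no comparison below has a replicate error or a test, and a difference between samples cannot be separated from variation between cultures or clones. Read depth is not given by FPKM values. The event lists held 156133, 155552 and 156379 rows for the WT, knockout and returned-Pcgf1 samples, with 12907, 12469 and 13255 genes above 0. Pcgf1 was listed at 14.0 FPKM in WT, 5.88 in Pcgf1-/- cells and 7.86 with Pcgf1 returned. The total does not check the knockout, because a shortened transcript still gives FPKM. However, the skipping of exons 2 and 3 (chr6:83078895-83079268) was listed in the knockout alone. The form without them had 5.88 FPKM and the form with them 0. In Pcgf1-/-+Pcgf1, derived from the knockout line, this skipping had no entry, as in WT. The whole 7.86 FPKM there was given to the first exon used in WT, for which the reason was not tested. The deletion was thus not seen in that sample, which bears on every comparison with it. Oct4 (Pou5f1), which defines pluripotent cells, stood at 669.5 FPKM in WT, 518 in the knockout and 626 with Pcgf1 returned, and Nanog in that order at 68.2, 46.3 and 123 FPKM, so that the markers of ES cells were present in every sample.

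Promoter sequences are shown for Otx2, because its transcripts were assigned to different first exons in the 3 samples, and for Fgf5, because its CpG-rich promoter accompanied almost no transcript. The windows run from 250 bases before to 50 bases after a RefSeq transcription start, 5′ to 3′ on the strand of the gene, in the GRCm38.p6 assembly. CpG pairs, the bases that Kdm2b reads when they are unmethylated, are in capitals. The Otx2 windows lie on the minus strand at chr14:48667459-48667758 for the distal, chr14:48665060-48665359 for the middle and chr14:48662685-48662984 for the proximal first exon. Their RefSeq starts are at 48667508, 48665109 and 48662734. The first exons with FPKM begin at 48667513, 48665246 and 48662872, inside the windows but upstream of those starts. The middle and proximal windows thus hold less sequence before the listed start and more of the exon. An exon that begins at 48667508 was listed at 0 in every sample. The Fgf5 window lies on the plus strand at chr5:98253934-98254233.
Otx2 distal window: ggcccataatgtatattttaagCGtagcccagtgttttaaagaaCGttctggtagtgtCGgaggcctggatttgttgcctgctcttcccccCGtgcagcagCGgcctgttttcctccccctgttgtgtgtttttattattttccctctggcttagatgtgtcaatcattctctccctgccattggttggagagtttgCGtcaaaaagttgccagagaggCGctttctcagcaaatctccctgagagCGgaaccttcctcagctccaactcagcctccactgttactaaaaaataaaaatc
Otx2 middle window: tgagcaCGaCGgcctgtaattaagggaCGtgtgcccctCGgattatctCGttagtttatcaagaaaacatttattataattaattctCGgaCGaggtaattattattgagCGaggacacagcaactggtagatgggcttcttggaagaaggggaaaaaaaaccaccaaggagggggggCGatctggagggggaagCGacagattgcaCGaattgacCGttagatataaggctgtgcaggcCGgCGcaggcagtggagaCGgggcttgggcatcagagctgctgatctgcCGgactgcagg
Otx2 proximal window: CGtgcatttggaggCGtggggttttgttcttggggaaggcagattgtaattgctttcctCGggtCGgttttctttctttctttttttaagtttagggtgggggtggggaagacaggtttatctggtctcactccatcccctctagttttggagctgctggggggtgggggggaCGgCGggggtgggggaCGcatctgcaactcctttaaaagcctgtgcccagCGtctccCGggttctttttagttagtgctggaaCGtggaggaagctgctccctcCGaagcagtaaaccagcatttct
Fgf5 window: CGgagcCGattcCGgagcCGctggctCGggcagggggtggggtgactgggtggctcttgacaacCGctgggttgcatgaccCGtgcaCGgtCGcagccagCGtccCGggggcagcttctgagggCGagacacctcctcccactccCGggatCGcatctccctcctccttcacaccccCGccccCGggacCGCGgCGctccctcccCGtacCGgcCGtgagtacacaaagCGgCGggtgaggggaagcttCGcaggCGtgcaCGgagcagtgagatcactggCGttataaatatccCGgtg

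The Fgf5 window held 29 CpG pairs, and 12.9% of all 32851 RefSeq windows of this length held as many or more. The middle Otx2 window held 16, the proximal 11 and the distal 8, against a median of 7 over all windows. The shares of windows with at least that many were 33.0%, 41.4% and 48.6%. The Nes window at chr3:87970843-87971142 held 18 CpG pairs, and 29.7% of windows held as many or more. Windows were matched for 5 of the 8 genes, Fgf5, Otx2, Nes, Lef1 and Sall2, and Zic2, Cdh2 and Pou3f1 had no entry in the table used. A CpG count describes these letters only and says nothing about methylation or about binding of PRC1.1.

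Of the 8 genes, the transcription factors Zic2 and Otx2 were lower in Pcgf1-/- cells than in the other samples. By the gene level used here, Nes and Cdh2 stayed within 2-fold between samples, with Nes highest in the knockout. For Cdh2 this rests on an unannotated first exon listed in the knockout alone. Lef1 and Fgf5 were near the bottom of the measurable range. In RNA from whole cultures, fewer cells that express a gene and less RNA of it per cell cannot be told apart. Where 3 values follow each other below without sample names, they are in the order WT, Pcgf1-/- and Pcgf1-/-+Pcgf1. Ordered by level in WT, Zic2 came first at 17.2 FPKM, followed by Nes at 3.29, Cdh2 at 2.47, Otx2 at 2.35, Lef1 at 0.257 and Fgf5 at 0.0486 FPKM. Without replicates, neighbours in this order cannot be ranked beyond their spread.

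**Figure D1:**
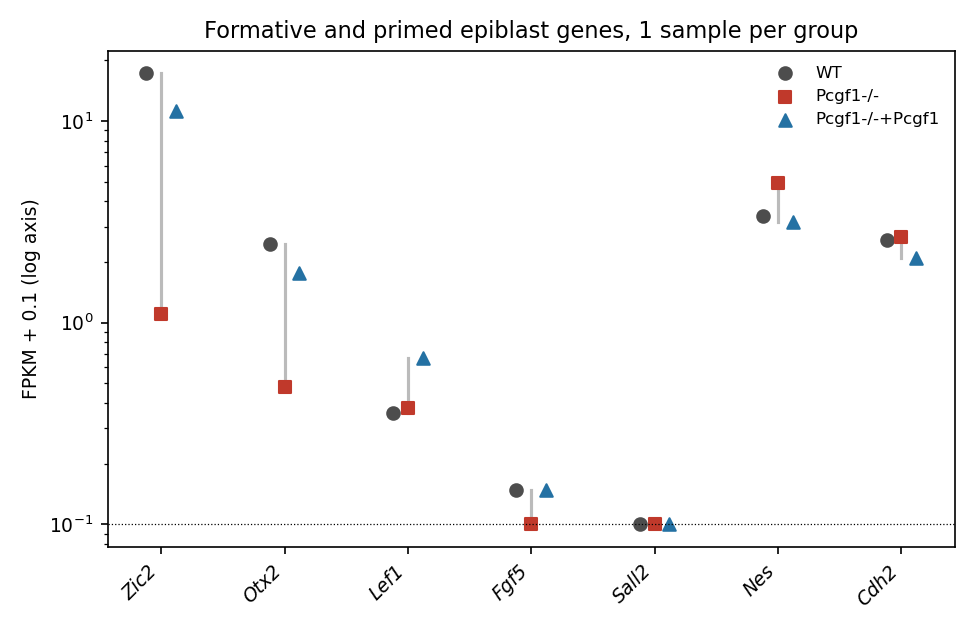
FPKM + 0.1 on a log axis for the 7 genes with rows, 1 point for each sample, with a grey line joining the lowest and highest sample of a gene. The dotted line is the level of a gene listed at 0. Zic2 and Otx2 show the widest gaps, with Pcgf1-/- lowest in both.

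Zic2 is a zinc finger transcription factor that acts at enhancers of the primed epiblast and later patterns the forebrain and neural tube. Its gene lies on the plus strand at chr14:122475435-122479852 (ENSMUSG00000061524). Zic2 was measured at 17.2 FPKM in WT, 1.004 FPKM in Pcgf1-/- and 11.1 FPKM in Pcgf1-/-+Pcgf1. The knockout was thus the low sample, and the sample with returned Pcgf1 lay between it and WT, closer to WT. On the log2(FPKM + 0.1) scale used for all ratios here, Zic2 was -3.97 in Pcgf1-/- relative to WT and 3.34 in Pcgf1-/-+Pcgf1 relative to Pcgf1-/-. The knockout held 5.85% of the WT level, and the sample with returned Pcgf1 held 64.6%.

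Among 9438 genes of at least 1 FPKM in WT or Pcgf1-/-, 49 had a lower ratio than Zic2, or 0.519%. Of those 49 genes, 4 were still above 0 in the knockout. The depth behind Zic2 was estimated as about 810 fragments in WT, 51 in Pcgf1-/- cells and 543 in Pcgf1-/-+Pcgf1 cells. For this, 1 fragment was taken as the median product of FPKM and transcript length in kilobases between 0.03 and 0.07. That range was set by hand. It held 71, 71 and 88 of 2005 genes with 1 transcript, with medians of 0.0517, 0.0484 and 0.0498. All fragment counts here are rough and depend on that range. They assume that all fragments came from the longest coding transcript.

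The 2 annotated first exons of Zic2 were not equally represented. Transcripts from the upstream first exon, at chr14:122475435-122476747, had 11.0 FPKM in WT, 1.004 in Pcgf1-/- cells and 7.88 with Pcgf1 returned. The downstream exon at chr14:122478100-122478703 begins the retained-intron transcript of the gene, which is annotated as non-coding. It was listed at 6.19, 0 and 3.21 FPKM. Its share of Zic2 was 36.1% in WT and 28.9% in Pcgf1-/-+Pcgf1, and the whole knockout signal was given to the upstream exon. Across the 3 samples, therefore, the coding form was also lowest in Pcgf1-/-.

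The genes whose pattern over the 3 samples was nearest to that of Zic2 were sought among 9738 genes, by Euclidean distance over the log2 ratios of Pcgf1-/- and of Pcgf1-/-+Pcgf1 to WT. Gspt2, a translation release factor, was nearest, at a distance of 0.0656, with 1.498 FPKM in WT, an entry of 0 in Pcgf1-/- cells and 0.977 in Pcgf1-/-+Pcgf1 cells. Sema4g, a semaphorin, followed at 0.276, and Blnk, a B-cell adaptor protein, at 0.290. Blnk stood at 4.16, 0.173 and 3.28 FPKM. All 3 genes were expressed at lower levels than Zic2. The order depends on the pseudocount, since Gspt2 and Sema4g were listed at 0 in the knockout. With 0.01 FPKM, Blnk was the nearest gene and Gspt2 came at place 612, and with 1 FPKM none of the 3 was among the nearest, Blnk at place 15 and Gspt2 at place 96.

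Otx2 is the homeobox factor that directs the formative transition and later specifies the anterior neural plate. Its gene lies on the minus strand at chr14:48657677-48673819 (ENSMUSG00000021848). Otx2 was measured at 2.35 FPKM in WT, 0.382 FPKM in Pcgf1-/- cells and 1.66 FPKM in Pcgf1-/-+Pcgf1. The knockout again was the low sample, and the order of the samples was the same as for Zic2. The log2 ratio was -2.35 in Pcgf1-/- relative to WT, which left 16.2% of the WT level. It was 1.87 in Pcgf1-/-+Pcgf1 relative to Pcgf1-/-, and the level there was 70.7% of WT. Of the 9438 genes, 121 had a lower knockout ratio than Otx2, or 1.28%, and 60 of these were above 0 in the knockout. The estimated depth was about 118, 20 and 87 fragments, so the knockout value rests on few fragments. The antisense gene Otx2os1, which overlaps the locus, was listed at 0 in WT and in the knockout and at 0.0807 FPKM with Pcgf1 returned.

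All Otx2 signal in WT was assigned to the proximal first exon, whose start lies inside the proximal window printed above. Transcripts from that exon had 2.35 FPKM in WT, 0.167 in Pcgf1-/- cells and 1.01 with Pcgf1 returned. The middle exon was listed at 0 in WT, at 0.215 FPKM in Pcgf1-/- cells and at 0.380 in Pcgf1-/-+Pcgf1 cells. As listed, at chr14:48664979-48665246, it matches no annotated exon exactly, and it held 56.2% of Otx2 in the knockout. The distal exon was above 0 in Pcgf1-/-+Pcgf1 alone, at 0.275 FPKM. The proximal exon thus carried 100% of Otx2 in WT, 43.8% in the knockout and 60.7% with Pcgf1 returned. At about 20 fragments in the knockout, the split between starts is uncertain. Of the other first exons, 3 that are annotated were listed at 0 throughout.

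A coding exon of Otx2 at chr14:48661299-48661450 also exists in a form that is 24 bases, or 8 codons, longer. The short form had 1.63 FPKM in WT, 0.382 in Pcgf1-/- cells and 0.950 with Pcgf1 returned. The long form had 0.723, 0 and 0.714 FPKM. Both forms were therefore lowest in the knockout, and the long form made up 30.7% of Otx2 in WT and 42.9% in Pcgf1-/-+Pcgf1.

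Across the 7 measured genes, 2 were past 2-fold between Pcgf1-/- and WT, both lower, and 0 were higher. Cdh2 counts as within the limit only with a first exon listed in the knockout alone, described below. Of all 25346 genes, 7.14% were past 2-fold in this comparison, 4.98% lower and 2.16% higher. Restricted to genes of at least 1 FPKM, 2 of 4 members were past 2-fold beside 9.09% of all 9438 such genes. With 4 genes, a share cannot be read closely, and the median log2 ratio of these 4 was -1.14 beside -0.09 over the 9438 genes. Between Pcgf1-/-+Pcgf1 and Pcgf1-/-, the same genes Zic2 and Otx2 were past 2-fold, both higher, where 6.35% of all genes were higher, 2.22% lower and 8.57% past 2-fold in either direction. This comparison shares the knockout sample with the former, so that it is no separate observation of a low knockout value. Between Pcgf1-/-+Pcgf1 and WT, 0 of 7 members were past 2-fold, beside 6.34% of all genes, 2.36% lower and 3.99% higher. Zic2 was then -0.63 and Otx2 -0.48 on the log2 scale, and the median of all genes of at least 1 FPKM was -0.11.

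**Figure D2:**
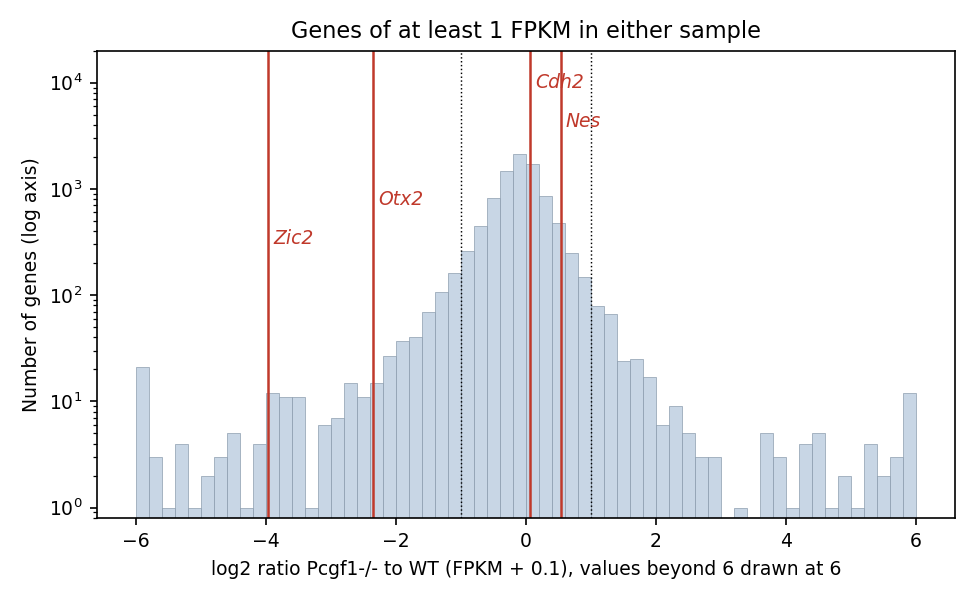
Number of genes, on a log axis, by log2 ratio of Pcgf1-/- to WT for the 9438 genes of at least 1 FPKM in either sample, with the 4 members in that range as red lines and the 2-fold limits dotted. Zic2 at -3.97 and Otx2 at -2.35 lie in the lower tail, and Nes at 0.54 and Cdh2 at 0.06 lie within the 2-fold limits.

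Lef1, on the plus strand at chr3:131110471-131224356 (ENSMUSG00000027985), encodes a DNA-binding partner of beta-catenin and conveys Wnt signals in the primed epiblast and the early mesoderm. It stood at 0.257 FPKM in WT, 0.278 in Pcgf1-/- cells and 0.566 in Pcgf1-/-+Pcgf1 cells. The sample with returned Pcgf1 was the high one, and WT and the knockout lay close together. The log2 ratio was 0.08 for Pcgf1-/- relative to WT and 0.82 for Pcgf1-/-+Pcgf1 relative to Pcgf1-/-, short of the 2-fold limit on this scale. With about 17, 20 and 40 fragments, the values of Lef1 carry a large counting error.

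The starts of Lef1 differed between samples at this low level. The upstream first exon carried 0.174 FPKM in WT, 0.0485 in Pcgf1-/- cells and 0.566 with Pcgf1 returned. A downstream first exon ending at the same base in all samples carried 0.0831 FPKM in WT, 0.229 in Pcgf1-/- cells and 0 in Pcgf1-/-+Pcgf1 cells. It was therefore 82.5% of Lef1 in the knockout and 32.3% in WT. In the knockout it was listed with an earlier start, at chr3:131112607-131112820. Inclusion of a 92-base cassette exon at chr3:131156484-131156575 was listed at 0.229 FPKM in the knockout, the same FPKM as that start, and at 0 in WT and Pcgf1-/-+Pcgf1.

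Fgf5, on the plus strand at chr5:98254184-98277030 (ENSMUSG00000029337), encodes a secreted ligand of the FGF receptors and is the classical marker of the formative and primed epiblast. It was listed at 0.0486 FPKM in WT, 0 in Pcgf1-/- cells and 0.0488 with Pcgf1 returned. These levels come to about 2 fragments in WT and 2 in Pcgf1-/-+Pcgf1, so a difference between samples was not detectable at this depth. Sall2 (ENSMUSG00000049532), a spalt-family zinc finger factor, was listed at 0 in all 3 samples for each of its 2 first exons. Of the other spalt genes, Sall4, which sustains pluripotency, stood at 49.7, 45.2 and 46.8 FPKM, Sall1 at 31.8, 27.5 and 22.6 FPKM and Sall3 at 0.466, 0.570 and 0.264 FPKM.

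Pou3f1, or Oct6, the POU factor that accompanies Otx2 in the formative epiblast, had no row in any sample. It is a gene of 1 exon at chr4:124656807-124660655 (ENSMUSG00000090125), and of 1328 protein-coding genes with 1 exon in the annotation, 65 were named in the event lists, or 4.89%. Of 20596 coding genes with more exons, 90.9% were named. The level of Pou3f1 was therefore not measured, and its missing row says nothing about its expression.

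**Figure D3:**
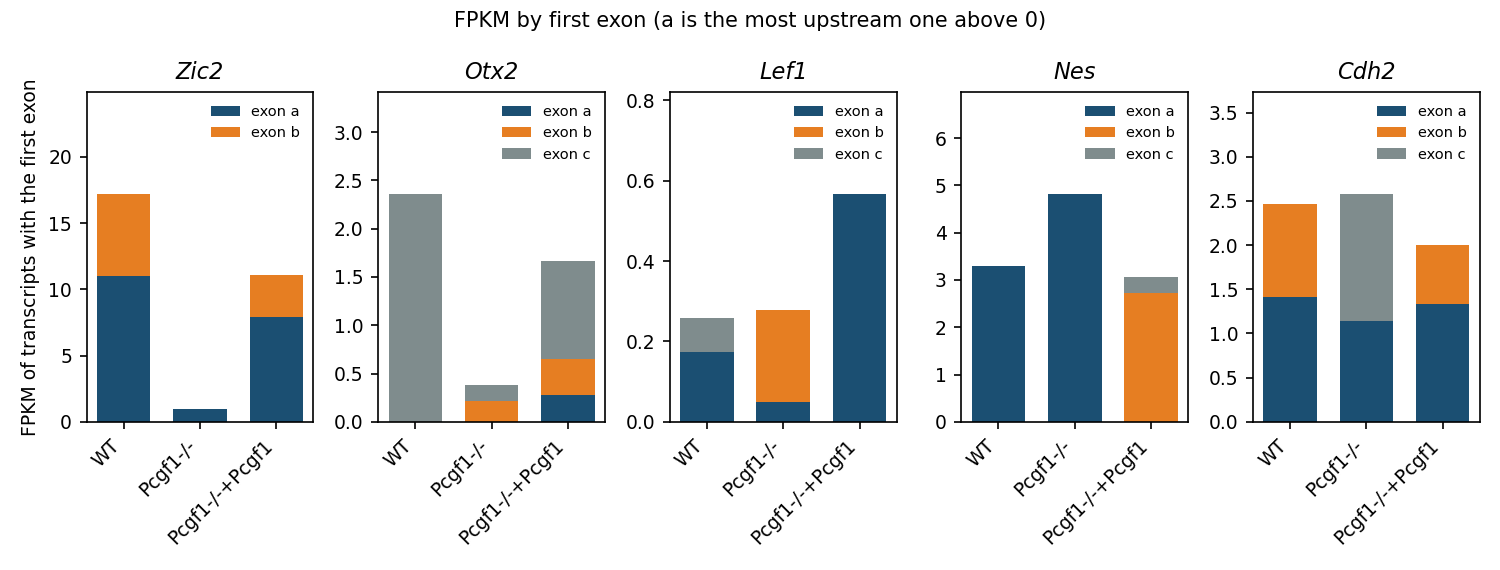
FPKM of transcripts that begin at each first exon above 0, stacked for each sample, for Zic2, Otx2, Lef1, Nes and Cdh2, where exon a is the most upstream. Exon c of Otx2 is the proximal one, which holds all of the 2.35 FPKM in WT. Exons a and b of Nes start 15 bases apart, and exons b and c of Lef1 end at the same base.

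Nes and Cdh2 belong to the neural side of the list. Nestin (Nes) is an intermediate filament protein of neural progenitors, and N-cadherin (Cdh2) is the adhesion protein that replaces E-cadherin when epiblast cells become mesoderm or neural plate. Nes (ENSMUSG00000004891), on the plus strand at chr3:87971078-87980451, stood at 3.29 FPKM in WT, 4.81 in Pcgf1-/- cells and 3.05 in Pcgf1-/-+Pcgf1 cells. The knockout was the highest sample, by 0.54 on the log2 scale over WT, within the 2-fold limit. Of the 9438 genes of at least 1 FPKM, 803 had a higher ratio than Nes and 91.5% a lower one. Its last-exon entry alone gave 0.373, 1.21 and 0.836 FPKM, a log2 ratio of 1.47 for Pcgf1-/- relative to WT and thus past the limit. That entry covers the last exon of a shorter transcript, and the longer last exon of the main coding transcript has no entry of its own.

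Cdh2 (ENSMUSG00000024304), on the minus strand at chr18:16588877-16809246, stood at 2.47 FPKM in WT, 2.57 in Pcgf1-/- cells and 2.00 with Pcgf1 returned. In these totals no sample stood apart, and the log2 ratio of the knockout to WT was 0.06. They rest on first exons alone, since the last-exon entry was 0 in all 3 samples. The exon that begins the full-length transcript carried 1.41, 1.14 and 1.33 FPKM. An internal start carried 1.06 FPKM in WT, 0 in Pcgf1-/- cells and 0.665 in Pcgf1-/-+Pcgf1 cells. Another start was listed in the knockout alone, at 1.43 FPKM or 55.6% of Cdh2. This first exon of 59 bases matches no annotated exon and holds 0 coding bases. The knockout total is level with WT only when it is counted. Without it, the knockout held 1.14 FPKM beside 2.47 in WT, which is lower past the 2-fold limit. E-cadherin (Cdh1) was far above N-cadherin in every sample, at 86.4, 100.2 and 76.2 FPKM.

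Nes, Cdh2 and Lef1 are also made by fibroblasts, on which these ES cells were grown. Of 24 fibroblast markers, 20 were measured singly, and 7 of these were lower and 0 higher past 2-fold in Pcgf1-/- relative to WT, beside 4.98% of all genes lower and 2.16% higher. With at least 1 FPKM in either sample there were 10 markers, 4 lower and 0 higher. Of all 9438 such genes, 577 were lower and 281 higher. Postn and Fap were listed at 0 in all 3 samples. The summed level of the 20 markers was 92.1 FPKM in WT, 74.9 in Pcgf1-/- cells and 74.0 with Pcgf1 returned. Much of this sum came from Ctgf, at 18.3, 21.8 and 14.5 FPKM, and Cyr61, at 30.6, 29.0 and 21.4 FPKM. In Pcgf1-/-+Pcgf1 relative to Pcgf1-/-, 6 of the 20 were higher and 1 lower past 2-fold, beside 6.35% of all genes higher and 2.22% lower. With at least 1 FPKM in either of these samples, 5 of 12 were higher and 1 lower, beside 692 higher and 344 lower of 9565 genes. The median log2 ratio of the 20 was then 0.40. The collagen Col1a1 stood at 1.88, 0.390 and 2.21 FPKM, and Thy1, a surface glycoprotein of fibroblasts, at 14.2, 6.39 and 13.5 FPKM. Col1a1 and Thy1 were lowest in the same sample as Zic2 and Otx2, whereas Twist1, a mesenchymal transcription factor, stood at 2.09, 3.19 and 0.763 FPKM and the matrix proteoglycan Dcn at 0.352, 0.779 and 1.18 FPKM. These markers were picked after their values were seen, and the part of feeder RNA in the members' values was not tested.

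The members' closest relatives were measured alongside. Of 19 related genes with rows, 1 was lower and 2 were higher past 2-fold in Pcgf1-/- relative to WT. Of all genes, 4.98% were lower and 2.16% higher. With at least 1 FPKM in WT or Pcgf1-/- there were 13 relatives, 0 lower and 2 higher, beside 577 lower and 281 higher of 9438 such genes. The median log2 ratio of the 19 was 0.00. The 2 higher ones were Fgf8 and Fgf15, and Fgf15 is counted again in the further list of epiblast genes below. Otx1, the paralogue of Otx2, stood at 0.528 FPKM in WT, 0.101 in Pcgf1-/- cells and 0.451 in Pcgf1-/-+Pcgf1 cells, a log2 ratio of -1.64. Zic5, which neighbours Zic2 on chromosome 14, was listed at 0 in every sample. The FGF ligand Fgf8 stood at 0.420, 1.28 and 0.830 FPKM, higher in the knockout by 1.41 on the log2 scale, while Fgf4, the main FGF of ES cells, stood at 80.5, 69.2 and 75.7 FPKM. Tcf7l1, the Lef1 relative that represses Wnt targets in ES cells, stood at 43.0, 48.5 and 34.5 FPKM.

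A further list of 21 genes of the formative and primed epiblast was examined in the same way, and 15 of these were measured singly. In Pcgf1-/- relative to WT, 0 were lower and 2 were higher past 2-fold, beside the 7.14% of all genes given above, and the median log2 ratio was 0.17. With at least 1 FPKM in either sample there were 13, of which the same 2 were past 2-fold. Of all 9438 such genes, 9.09% were past 2-fold, 577 of them lower and 281 higher. Etv4, an ETS factor downstream of FGF signalling, stood at 29.7 FPKM in WT, 70.7 in Pcgf1-/- cells and 25.4 with Pcgf1 returned. Fgf15 stood at 1.02, 2.59 and 1.83 FPKM. Dusp6, a phosphatase that ERK induces against itself, was highest in the knockout too, at 44.5, 69.5 and 24.4 FPKM, a log2 ratio of 0.64 to WT and of -1.51 in Pcgf1-/-+Pcgf1 relative to Pcgf1-/-. Etv5, the nearest relative of Etv4 and likewise a target of FGF signalling, stood at 100.5, 98.9 and 116 FPKM, and Spry2, another feedback gene of this pathway, was listed at 0 in every sample. The de novo DNA methyltransferase Dnmt3a stood at 35.9, 22.7 and 34.1 FPKM. Zic2 and Otx2 were thus on the opposite side of WT from Etv4 and Fgf15 in the knockout.

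**Figure D4:**
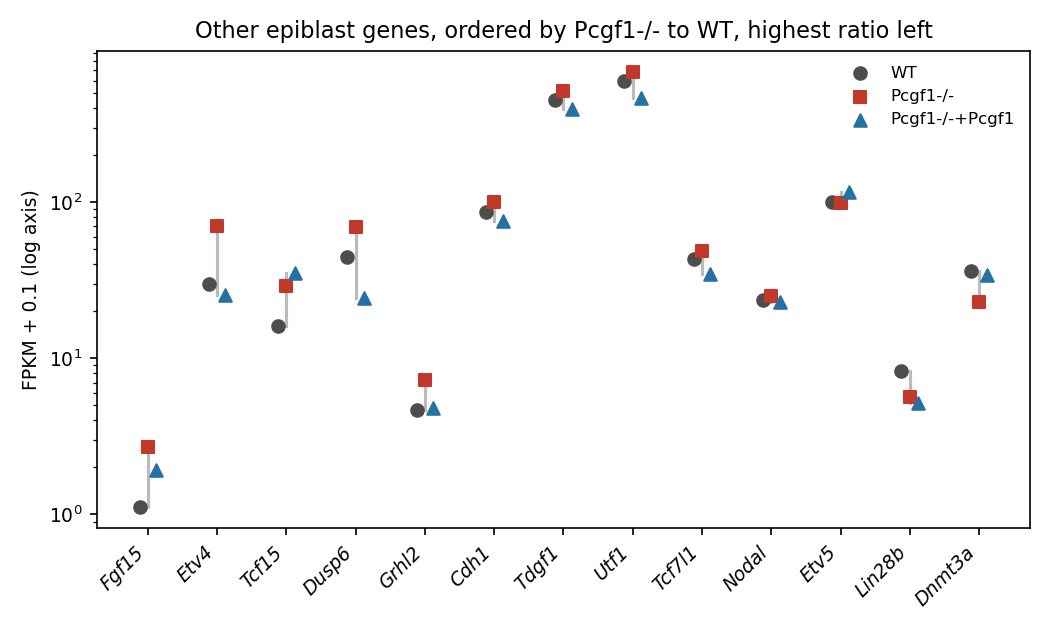
FPKM + 0.1 on a log axis for the 13 other epiblast genes of at least 1 FPKM in some sample, 1 point for each sample, ordered by the ratio of Pcgf1-/- to WT from highest to lowest. Etv4 and Fgf15 at the left are past 2-fold, and no gene at the right is.

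Dnmt3b and Pim2 shared rows with a neighbouring gene in some samples and were left out of these counts. The first exons of the Dnmt3b locus summed to 131 FPKM in WT, 119 in Pcgf1-/- cells and 135 in Pcgf1-/-+Pcgf1 cells, where the rows of the latter 2 also name Gm14490. Pim2, a kinase, was listed alone in Pcgf1-/- at 9.54 FPKM and in Pcgf1-/-+Pcgf1 at 37.4 FPKM, while in WT the row was shared with Otud5.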

How the data were processed

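RNA-seq of 3 mouse ES cell samples was analysed. Per the labels, each file deposited by the authors holds transcript events on mm10 (first exons, last exons, skipped exons, alternative exon ends), each with an FPKM. This was taken as the summed FPKM of the transcripts that carry the event, which the sources used here do not state, and gene levels and first-exon shares rest on that reading. The submitters' processing notes name TopHat2 2.0.12, Cufflinks 2.2.1 and HTSeq 0.6.0 with no role, and the tool behind these files is not given in the sources used here. FPKM is scaled to each library's total, so a level depends on the other genes of that library, and totals of reads are not in these files.

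Gene levels were built as described in the report. Names joined by commas were kept apart. Ratios are log2 of FPKM + 0.1, and a gene was called past 2-fold. With 1 sample per group no test was run. Gene positions and transcripts are from GENCODE vM21 (GRCm38), promoter windows from RefSeq. The code of the calling step was checked on simulated data with large planted changes and no noise between samples. That check says nothing about wrong calls with 1 sample per group. Python 3.11.15, pandas 2.3.3, numpy 2.4.6 and matplotlib 3.10.9 were used. In each list every gene was counted, and those past 2-fold in Pcgf1-/- relative to WT with at least 1 FPKM in either sample were open to naming. For Zic2, the member with the largest absolute log2 ratio, the 3 nearest patterns were named. Other genes were named after their values were seen. A gene of the lists of relatives and of other epiblast genes is not reported here and is left out of their counts. The members and lists were chosen with earlier results of these data known. Alternatives were pseudocounts of 0.01 and 1 FPKM, first or last exons only, median-of-ratios scaling, and a minimum of 1 FPKM. The same pseudocounts were tried for the nearest patterns after seeing the data.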

Additional observations from a re-analysis of the deposited data

How the results depend on the processing

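No paired analysis was possible because each group had 1 sample. Of 117 values of members under 6 alternatives, 111 stayed on their side of the 2-fold limit, and no member past 2-fold changed direction. A part of these values could not move, so the count is no measure of stability. Sall2 and the last-exon entry of Cdh2 were 0 in every sample. A minimum of 1 FPKM leaves the ratio of a gene as it was, and first exons alone gave nearly the main values. Nes in Pcgf1-/-+Pcgf1 relative to WT, within the limit at -0.10, was 0.98 with last exons alone and 0.0089 with median-of-ratios scaling. With a pseudocount of 0.01 FPKM, 3 members were past 2-fold in Pcgf1-/- relative to WT (Fgf5, at -2.55, in addition), 4 members were past 2-fold in Pcgf1-/-+Pcgf1 relative to Pcgf1-/- (Fgf5 and Lef1 in addition) and 1 in Pcgf1-/-+Pcgf1 relative to WT (Lef1). With 1 FPKM, 1 member was past it relative to Pcgf1-/-, Otx2 falling to 0.95, and 1 other epiblast gene in Pcgf1-/- relative to WT. The pseudocount bounds the ratios of low genes by construction. Calls among all genes were 3267 with 0.01 FPKM, 454 with 1 FPKM and 858 with the minimum of 1 FPKM in Pcgf1-/- relative to WT, against 1810. They were 3656, 585 and 1036 in Pcgf1-/-+Pcgf1 relative to Pcgf1-/-, against 2173, and 3002, 329 and 624 relative to WT, against 1608. Median-of-ratios scaling moved the median ratio of Pcgf1-/-+Pcgf1 to WT over genes of at least 1 FPKM from -0.11 to 0.0031 on the log2 scale. Last exons alone put Nes at 1.47, past 2-fold, for which the cause was not tested. Depth limits Fgf5, Lef1 and the knockout value of Otx2.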

Other observations

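Of the listed marker genes of the fates that follow the primed epiblast, most were below 1 FPKM in every sample. Of 14 genes of the neural lineage, 10 were measured singly. In Pcgf1-/- relative to WT 1 of them was lower past 2-fold and 0 were higher, beside 4.98% of all genes lower and 2.16% higher. Of the 10 log2 ratios in this comparison, 8 were below 0 and 1 above, with a median of -0.34. Their summed level was 7.23 FPKM in WT, 5.90 in Pcgf1-/- cells and 9.70 with Pcgf1 returned. Much of it came from Map2, at 4.36, 4.12 and 3.46 FPKM. Pax6, a homeobox factor of the neural ectoderm, stood at 0.503, 0.292 and 0.584 FPKM. Rbfox3, which encodes the neuronal nuclear protein NeuN, stood at 1.44, 1.001 and 4.12 FPKM, highest with Pcgf1 returned.

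Of 10 mesoderm and endoderm genes, 0 were lower and 2 were higher past 2-fold in Pcgf1-/- relative to WT. Of all genes, 4.98% were lower and 2.16% higher. The 2 higher ones, Gsc and Gata6, were below 1 FPKM in every sample. Their summed level was 2.51, 4.29 and 3.26 FPKM. Eomes, a T-box factor of the primitive streak, was the one gene of the list at 1 FPKM or more, at 1.39 FPKM in WT, 2.195 in Pcgf1-/- cells and 1.22 in Pcgf1-/-+Pcgf1 cells. Gsc, a homeobox factor of the organizer, stood at 0.116, 0.537 and 0.755 FPKM, and Gata6, a factor of primitive endoderm, at 0.136, 0.410 and 0.129 FPKM.

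Of 18 genes of naive or general pluripotency, 15 were measured singly, and 3 were lower and 1 was higher past 2-fold in Pcgf1-/- relative to WT, beside 4.98% of all genes lower and 2.16% higher. All 15 had at least 1 FPKM in WT or Pcgf1-/-. Of all 9438 such genes, 577 were lower and 281 higher, a larger share than over all genes. Klf4 stood at 2.62, 1.19 and 8.07 FPKM, Dppa3 at 38.3, 17.5 and 60.1 FPKM and Tcl1 at 9.11, 4.50 and 31.5 FPKM. These 3 genes were lowest in the knockout and highest with Pcgf1 returned. Tbx3, the higher one, stood at 0.233, 1.43 and 3.61 FPKM. Over the 15 genes, 9 log2 ratios of Pcgf1-/- to WT were below 0 and 6 above, and Zfp42 stood at 35.5, 51.7 and 35.7 FPKM.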
